A study of Mus musculus with 7 samples.

Results

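The 9 podocyte genes described here, *Synpo*, *Actn4*, *Inf2*, *Myh9*, *Anln*, *Arhgap24*, *Arhgdia*, *Myo1e* and *Des*, encode proteins that build or control the actin cytoskeleton, with the intermediate filament protein desmin among them. They were taken by name, without use of any measured value, from the 21866 protein-coding genes with a coding transcription start site (TSS) in GENCODE vM21. For each gene, the DNase-Seq peaks that overlapped 500 nt on either side of any protein-coding TSS were examined, as were all peaks across the gene body. The samples were immortalised mouse podocytes in culture, which were growth-arrested in medium with reduced serum. Normal glucose (NG) cells were kept in 5 mM glucose for 36 h. HG+NT cells were kept in 25 mM glucose for 36 h and transfected with 50 nM of a nontargeting mimic, and HG+miR-93 cells were kept in 25 mM glucose for 36 h with 50 nM of a miR-93 mimic. Each condition had 2 replicates, and 1 sample of digested genomic DNA served as input. No mimic is named for NG, so in HG+NT against NG the effects of glucose and of transfection cannot be told apart.

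The foot processes of podocytes are held in shape by bundled actin filaments, which are anchored below the slit diaphragm and at the basement membrane. Crosslinkers and scaffolds such as alpha-actinin-4, synaptopodin and anillin organise these filaments, formins make and sever them, myosins pull on them or tie them to membranes, and small GTPases and their regulators control their turnover. Mutations in several of these genes cause inherited proteinuric kidney disease in people, and desmin is widely stained as a sign of podocyte injury. DNaseI cuts DNA that nucleosomes leave exposed, so that the fragments it releases collect at promoters and enhancers that are open.

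The data were 3 lists of MACS2 peaks, 1 for each condition, in which the replicates had been joined. The spread between replicates is therefore unknown, and the conditions were compared without a test. The level given for a peak is its pileup, the number of fragments at its summit scaled to the input's depth. Its 95% interval is an exact Poisson interval and holds the counting error alone. A second value, the fold, is the authors' ratio of the pileup to the local mean of the input, each increased by 1. The lists were unequally deep. Relative to NG, HG+NT rested on 1.72 times and HG+miR-93 on 2.30 times as many fragments, and the median summit held 6, 10 and 12 fragments. The lists covered 93.7% to 95.4% of the chromosomes, so nearly every position lay in some peak and the presence of a peak says little. The −log10 q of the members' promoter peaks was 0 in 26 of 27 cases, the exception being *Myh9* in HG+NT.

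The promoter sequences of 5 members are shown because their summits, which differed by 21 to 467 nt between conditions, fell on or close to them. They run 5′ to 3′ up to the base before the RefSeq start and come from RefSeq for GRCm38.p6, the build of the peak lists. Capitals mark motifs on either strand: the GC box, searched as GGGCGG, the box named after its letters CCAAT, the TATA box, searched as TATAAA, and the CArG box, the binding motif of serum response factor.
Myh9 promoter, chr15:77842176-77842425, minus strand: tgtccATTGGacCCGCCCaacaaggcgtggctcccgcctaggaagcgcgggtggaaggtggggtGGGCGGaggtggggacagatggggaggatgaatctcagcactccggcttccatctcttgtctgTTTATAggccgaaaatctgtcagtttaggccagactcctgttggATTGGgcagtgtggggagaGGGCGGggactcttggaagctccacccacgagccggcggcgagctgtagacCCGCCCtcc
Actn4 promoter, chr7:28962333-28962582, minus strand: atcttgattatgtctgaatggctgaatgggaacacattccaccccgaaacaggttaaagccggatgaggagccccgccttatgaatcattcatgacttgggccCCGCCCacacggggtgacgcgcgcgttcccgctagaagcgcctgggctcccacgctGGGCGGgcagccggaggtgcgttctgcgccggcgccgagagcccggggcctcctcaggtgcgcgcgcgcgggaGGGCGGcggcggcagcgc
Inf2 promoter, chr12:112588534-112588783, plus strand: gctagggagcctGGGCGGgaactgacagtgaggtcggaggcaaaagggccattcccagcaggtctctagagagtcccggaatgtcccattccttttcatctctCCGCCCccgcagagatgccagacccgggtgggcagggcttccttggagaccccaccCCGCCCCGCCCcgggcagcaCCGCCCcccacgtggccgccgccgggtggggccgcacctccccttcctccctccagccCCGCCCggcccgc
Anln promoter, chr9:22389207-22389456, minus strand: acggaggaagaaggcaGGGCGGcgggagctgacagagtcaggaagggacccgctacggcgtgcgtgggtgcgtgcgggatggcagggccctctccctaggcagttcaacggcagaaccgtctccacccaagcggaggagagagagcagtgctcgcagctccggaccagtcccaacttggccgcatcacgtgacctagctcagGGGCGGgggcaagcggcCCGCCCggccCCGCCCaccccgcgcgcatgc
Myo1e promoter, chr9:70207100-70207349, plus strand: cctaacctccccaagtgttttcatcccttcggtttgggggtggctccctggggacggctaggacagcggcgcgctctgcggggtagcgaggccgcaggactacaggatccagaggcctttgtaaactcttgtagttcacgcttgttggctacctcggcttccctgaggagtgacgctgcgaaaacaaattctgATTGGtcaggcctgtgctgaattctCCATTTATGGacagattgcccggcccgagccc
The first 4 of these promoters hold GC boxes and *Myo1e* holds none. *Myo1e* instead has a CCAAT box 57 nt and a CArG box 32 nt before its start. Over 300 nt, 250 before and 50 after each start, RefSeq listed 9 promoters for 7 of the members, *Synpo* and *Arhgap24* not being matched. Of these 9, 8 held a GC box, against 35.7% of all 32851 promoters in the table, and the median share of G and C in the 250 nt before the start was 68.4%, against 52.4%. A CArG box was found in 1 of the 9 and in 1.63% of all promoters, a CCAAT box in 2 (37.4% of all), a TATA box in 1 (13.6%), the AP-1 motif TGANTCA in 1 (7.81%), the ETS motif GGAAGT in 2 (23.8%), the FOX motif TGTTTAC in none (3.65%) and an E-box (CANNTG) in 7 (72.3%). *Inf2* and *Arhgdia* each have 2 promoters in the table, and those of *Inf2* overlap. A match is a stretch of letters and says nothing about whether a factor was bound.

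The members' promoter folds were ranked among the 21835 protein-coding genes that had a promoter peak in every list. Taking the peak of highest fold for each gene, the median percentile of the 9 members was 81.3 in NG (range 4.96 to 91.1), 87.0 in HG+NT (19.98 to 99.4) and 71.4 with the miR-93 mimic (26.1 to 94.6). Of the 9, 8 lay above the 50th percentile in NG, 6 in HG+NT and, with the miR-93 mimic, 7. Ranked by pileup instead of fold, the medians were 68.2, 74.0 and 69.7. The NG rank depended on the choice of peak, with a median of 60.8 for the peak of highest pileup and of 44.0 over the 6 members left when summits had to lie within 500 nt of a TSS in every list. The plot of percentiles shows that *Actn4* and *Inf2* stayed near the top in every list, whereas the ranks of *Des*, *Arhgdia* and *Arhgap24* were far apart between lists.

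**Figure D1:**
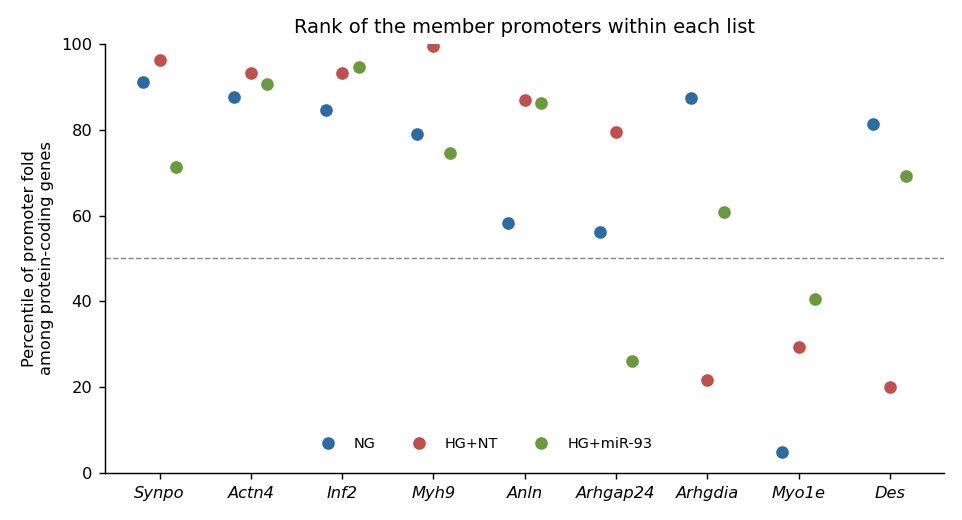
Percentile (y axis, 0 to 100) of the promoter fold of each member gene (x axis) among 21835 protein-coding genes, in the 3 joint lists; each point is 1 list, with no error bar, and the dashed line is the 50th percentile. Actn4 and Inf2 lie between 84.6 and 94.6 in each list, Myh9 reaches 99.4 in HG+NT, and Myo1e lies at 4.96, 29.3 and 40.5.

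Alpha-actinin-4, encoded by *Actn4* (chromosome 7 of GRCm38, 28893248 to 28962340, minus strand), crosslinks actin filaments. Its promoter summits lay 18, 29 and 8 nt upstream of the TSS in the NG, HG+NT and miR-93 mimic lists, all within 21 nt of each other. The pileup was 10.7 (95% interval 6.87 to 15.9) in NG, compared with 11.4 (8.30 to 15.3) in HG+NT and, with the miR-93 mimic, 9.13 (6.71 to 12.1). These intervals overlapped throughout, and the folds of 2.66, 2.70 and 2.41 ranked at percentiles 87.7, 93.3 and 90.8. *Actn4* was the member whose summits lay closest together.

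The formin gene *Inf2* (chromosome 12, 112588784 to 112615557, plus strand), whose product both assembles and severs actin filaments, was the most even of the members. Its summits lay 51, 114 and 69 nt downstream of the first TSS, in an untranslated exon in NG and HG+miR-93 and in an intron in HG+NT. The pileup was 6.70 (3.75 to 11.05) in NG, compared with 6.49 (4.20 to 9.58) in HG+NT and, with the miR-93 mimic, 6.80 (4.74 to 9.46). The values differed by far less than the width of their intervals, and the percentiles of the folds were 84.6, 93.1 and 94.6. The 95% interval of the ratio of HG+miR-93 to HG+NT still ran from 0.609 to 1.83, so that differences inside these bounds were not detectable at this depth.

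Anillin, the product of *Anln* (chromosome 9, 22332012 to 22389188, minus strand), is a scaffold that binds actin and myosin. Its summits lay 1 nt downstream of the TSS in NG, 115 nt downstream in HG+NT and 94 nt upstream in HG+miR-93. The pileup was 8.93 (5.46 to 13.8), 6.75 (4.41 to 9.89) and 8.16 (5.88 to 11.0), with overlapping intervals. By fold, the promoter ranked lower in NG, at percentile 58.2, than in HG+NT, at 87.0, or HG+miR-93, at 86.3. The local mean of the input under those summits was 4, 2.2 and 3 in the same order, so the order of the folds is not that of the pileups.

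Synaptopodin, encoded by *Synpo*, binds actin and alpha-actinin and is typical of differentiated podocytes. The gene spans 66.17 kb with 7 protein-coding TSSs on chromosome 18 (60593973 to 60660142, minus strand). In NG and HG+NT its best promoter peak had summits only 5 nt apart, 337 and 332 nt inside the gene from an internal TSS at 60623325, in an intron. The pileup there was 6.70 (3.75 to 11.05) in NG and 7.01 (4.62 to 10.2) in HG+NT, with folds of 2.83 and 2.97 at percentiles 91.1 and 96.3. In HG+miR-93 this position lay inside a peak 18885 bp wide whose summit, also intronic, had a pileup of 5.83 (3.93 to 8.32) and a fold of 2.01 at percentile 71.4. Since a summit is the highest point of its peak, the pileup at the site shared by NG and HG+NT was at most 5.83 in HG+miR-93. The ratio of that upper limit to HG+NT was 0.832 (0.478 to 1.45), and its interval included 1. At the first coding TSS of the gene, the highest pileup was 7.15 (4.08 to 11.6) in NG, compared with 4.93 (2.97 to 7.71) in HG+NT and, with the miR-93 mimic, 4.86 (3.14 to 7.17). NG was the highest there, and the folds of 1.36, 1.85 and 1.39 were below those of the internal start.

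Nonmuscle myosin IIA, whose heavy chain *Myh9* encodes, is a motor that contracts actin bundles. The gene lies on chromosome 15 (77760587 to 77842175, minus strand) and has 3 protein-coding TSSs. Near the first of them, the summits of the peaks with the highest pileup lay 115 nt upstream in NG, 52 nt upstream in HG+NT and 172 nt upstream in HG+miR-93, all within the *Myh9* sequence shown above. The pileup was 16.1 (11.3 to 22.3) in NG, compared with 27.3 (22.3 to 33.0) in HG+NT and, with the miR-93 mimic, 19.4 (15.8 to 23.6). These were the highest promoter pileups of the set, at percentiles 98.8, 99.9 and 99.9 among all genes. The HG+NT peak counted 105 fragments, had a −log10 q of 4.05 and was the 21st of 846027 peaks in the order of −log10 p.

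Other values at the *Myh9* start depended on the input. The local mean of the input was 9 under the NG summit, 6 at that of HG+NT and 11 at that of HG+miR-93, although a single input was used for each list and the summits were within 120 nt. The folds were therefore 1.71, 4.04 and 1.70, a contrast that is wider than that of the pileups. When the peak of highest fold was chosen, NG was represented by a summit 1263 nt downstream of the first TSS (pileup 7.15, 4.08 to 11.6) and HG+miR-93 by one in a coding exon 859 nt from the third TSS (7.19, 5.06 to 9.91). By that choice the folds ranked at percentiles 79.1, 99.4 and 74.6. Ratios of *Myh9* by highest fold hence compare different positions, and those by highest pileup compare the same start.

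The unconventional myosin *Myo1e* (chromosome 9, 70207350 to 70399766, plus strand) ties membranes to actin and has 1 protein-coding TSS. Its fold ranked low, at percentiles 4.96, 29.3 and 40.5 in the 3 lists, whereas its pileup ranked at 89.2, 81.2 and 61.2. The pileup was 11.2 (7.23 to 16.5) in NG, compared with 7.79 (5.26 to 11.1) in HG+NT and, with the miR-93 mimic, 5.25 (3.46 to 7.63). NG was the highest and HG+miR-93 the lowest, and the intervals of these 2 overlapped only between 7.23 and 7.63. The summits lay 75, 292 and 542 nt downstream of the TSS, and the input's local mean at them was 10, 5 and 3. At these chosen summits the pileup and the input moved together, and the part of the input in the order of the conditions was not tested. A second HG+NT peak lay 89 nt upstream of the TSS, with a lower pileup, 6.49 (4.20 to 9.58), over a higher input mean, 9. One of HG+miR-93 lay 128 nt upstream, with 4.47 (2.83 to 6.71) over 4.6.

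Among the regulators of small GTPases, *Arhgap24* encodes a GTPase-activating protein for Rac and *Arhgdia* the inhibitor that keeps such GTPases in the cytosol. *Arhgap24* (chromosome 5, 102481391 to 102897937, plus strand) is 416.547 kb long and has 5 protein-coding TSSs. At the last of them, at 102845007, lay the highest pileup of the gene's promoters in each list, 7.59 (4.42 to 12.2) in NG, compared with 6.23 (3.99 to 9.27) in HG+NT and, with the miR-93 mimic, 5.83 (3.93 to 8.32). These summits lay 777, 389 and 212 nt downstream of that TSS. The 2 starts furthest upstream, 162 nt apart at 102481391 and 102481553, reached only 2.23 in NG, 4.41 in HG+NT and, with the miR-93 mimic, 3.89. That HG+NT summit lay 1707 nt upstream of the first TSS. The NG peak covering its position was not counted at these starts. It had a pileup of 3.57 (1.54 to 7.04), with its summit 184 nt away, so 2.23 and 4.41 do not compare the same site. By highest fold, HG+NT and HG+miR-93 were represented by these upstream starts, with pileups of 4.41 (2.57 to 7.07) and 3.11 (1.78 to 5.05), and NG by the downstream one. An antisense gene, *1700013M08Rik*, covers both of those upstream summits, and reads of the pair cannot be told apart.

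*Arhgdia* (chromosome 11, 120578104 to 120581624, minus strand) is the shortest member and had 2 to 4 peaks across its 3.521 kb. Its NG promoter peak had its summit 333 nt upstream of the first TSS, with a pileup of 7.59 (4.42 to 12.2) and a fold at percentile 87.3, inside the unclassified transcript *Gm3807* on the other strand. In HG+NT and HG+miR-93 the summits lay in an intron, 635 and 720 nt downstream of the second TSS, with pileups of 4.41 (2.57 to 7.07) and 5.64 (3.77 to 8.09) and folds at percentiles 21.7 and 60.8. NG was the highest, its interval overlapped both others, and the sites were not the same. A second HG+NT peak lay nearer to the NG site, with its summit 79 nt upstream of the first TSS and a pileup of 5.19 (3.17 to 8.02), also inside *Gm3807*.

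*Des* (chromosome 1, 75360329 to 75368579, plus strand), the desmin gene, had the lowest or second-lowest pileup of the members in each list when the highest peak was taken, and its chosen peaks had summits at different sites. Its values were 4.91 (2.45 to 8.79) in NG, compared with 5.45 (3.38 to 8.34) in HG+NT and, with the miR-93 mimic, 4.86 (3.14 to 7.17). The summits lay 1160 nt upstream of the TSS, 300 nt downstream in a coding exon and 1928 nt downstream, and their folds ranked at percentiles 81.3, 19.98 and 69.3. NG had a further summit 132 nt from that of HG+miR-93, with a pileup of 4.47 (2.14 to 8.21). For this marker of podocyte injury, the 3 pileups were therefore close while the ranks by fold were far apart.

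**Figure D2:**
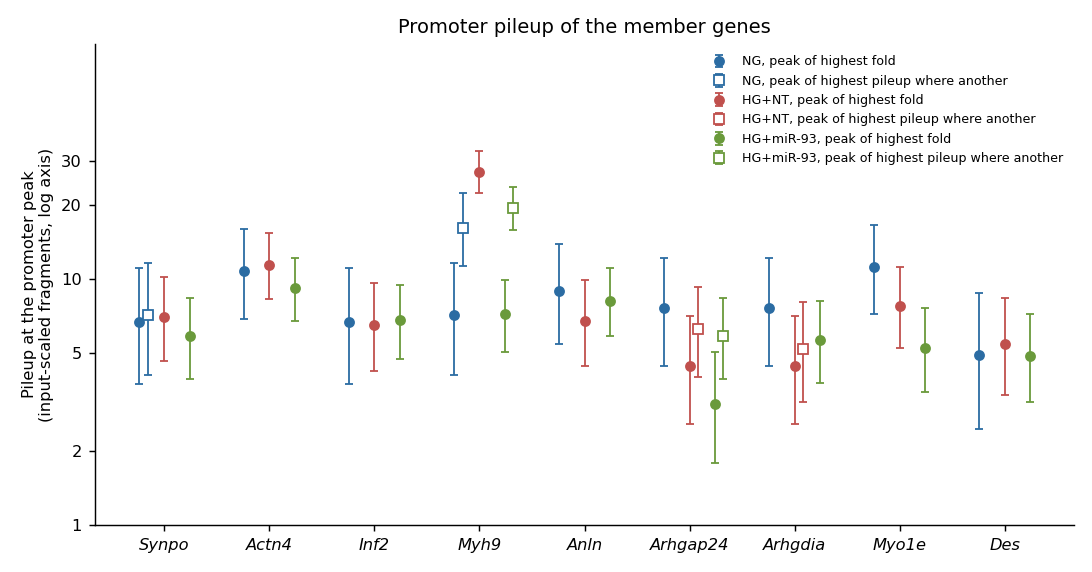
Pileup (y axis, fragments at the depth of the input, log axis) at the promoter peak of each member gene (x axis) in the 3 joint lists, each of 2 replicates. Filled circles are the peak of highest fold, open squares the peak of highest pileup where that is another peak, and bars are 95% exact Poisson intervals for counting error; the 3 Myh9 values at its first start, 16.1, 27.3 and 19.4, stand above all others.

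The first comparison, HG+NT against NG, sets high glucose with the nontargeting mimic against normal glucose. Over 21834 genes, the median ratio of promoter pileups was 0.904 (-0.14 on the log2 scale), so ratios are to be read against that value. At the peak of highest fold, 1 of the 9 members (*Myh9*) was past 1.5-fold higher, against 7.73% of all genes, and 2 (*Arhgap24* and *Arhgdia*, each 0.581, interval 0.279 to 1.21) were past 1.5-fold lower, against 19.5%. Neither of these 2 calls held by highest pileup, where *Arhgap24* stood at 0.821 (0.423 to 1.63) and *Arhgdia* at 0.684 (0.340 to 1.39). The *Arhgap24* value of 0.581 compares summits 366100 nt apart, and with summits within 500 nt of a TSS it was 1.40. The median ratio of the members was 0.969. The counting interval excluded 1 for *Myh9* alone, and for 6.98% of all genes. *Myh9* stood at 3.82 (2.24 to 6.92) at the peak of highest fold and at 1.70 (1.15 to 2.55) at the first start, where 97.3% of genes had a lower ratio by the same choice of peak. Promoters of chromosome 15 had a median ratio of 1.14 by that choice, and over this median *Myh9* stood at 1.48, short of 1.5-fold. The other 8 members lay between 0.581 and 1.11, and each interval included 1.

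The second comparison, HG+miR-93 against HG+NT, asks what the miR-93 mimic changes in high glucose. It shares the HG+NT list with the first, so a high or low HG+NT value enters both with opposite sign. The median over all genes was 0.952. None of the 9 members was past 1.5-fold higher, against 4.35% of genes, and 1 (*Myh9*) was past 1.5-fold lower, against 9.04%. The interval excluded 1 for *Myh9* alone, and for 5.21% of all genes. At its first start the *Myh9* ratio was 0.713 (0.537 to 0.946), and 9.24% of genes had a lower one, while at the peak of highest fold, at different positions, it was 0.264 (0.176 to 0.387). The median of the members was 0.832. Besides *Myh9*, the lowest were *Myo1e* at 0.674 (0.385 to 1.17) and *Arhgap24* at 0.704 (0.333 to 1.48), and the highest *Arhgdia* at 1.28 (0.678 to 2.48) and *Anln* at 1.21 (0.724 to 2.05).

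The third comparison, HG+miR-93 against NG, sets high glucose with the miR-93 mimic against normal glucose. No mimic is named for NG, so the effects of glucose, of transfection and of miR-93 cannot be told apart in it. The median over 21835 genes was 0.870 (-0.20 on the log2 scale), and that of the members was the same to 3 digits. None of the 9 was past 1.5-fold higher, against 6.35% of genes, and 2 (*Arhgap24* and *Myo1e*) were past 1.5-fold lower, against 24.5%. Their intervals excluded 1, as did those of 9.64% of genes. The upper bounds, 0.862 for *Arhgap24* and 0.844 for *Myo1e*, lay just below the median over all genes. They lay above the medians of their chromosomes, 0.816 for chromosome 5 and 0.808 for chromosome 9. *Myo1e* stood at 0.470 (0.263 to 0.844), was the same by highest pileup and, with summits within 500 nt, stood at 0.400 (0.217 to 0.735). Its folds turned the other way, with a ratio of 1.41. *Arhgap24* stood at 0.410 (0.194 to 0.862) between different starts and at 0.768 (0.410 to 1.48) at the start it used in each list. *Myh9* at its first start stood at 1.21 (0.818 to 1.82), with an interval that included 1. The median ratio of chromosome 15 by that choice of peak was 1.07, and over it *Myh9* stood at 1.13. Counts of 0 to 2 of 9 members are close to what these shares of all genes give.

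**Figure D3:**
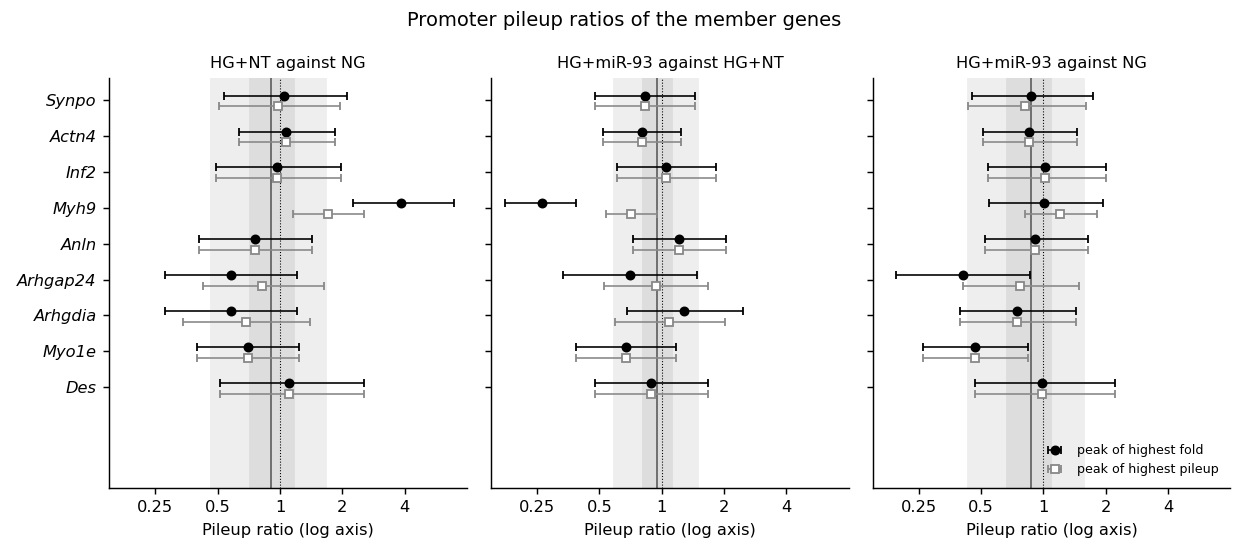
Ratio of promoter pileups (x axis, log axis) for each member gene (y axis) in the 3 comparisons, by the peak of highest fold (filled) or of highest pileup (open), with 95% counting intervals as bars. The dark and light grey bands hold the middle 50% and 90% of all genes and the grey line their median, all by the peak of highest fold. Myh9 lies to the right of the dark band in HG+NT against NG (3.82 and 1.70) and to its left in HG+miR-93 against HG+NT (0.264 and 0.713).

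Across the gene bodies, 526 peaks in NG, 428 in HG+NT and, with the miR-93 mimic, 419 covered 79.2% to 99.1% of each member. The peaks of each list were therefore narrowed to the 50000 with the highest −log10 p, ties included. Of these strong peaks, 32, 38 and 36 overlapped the bodies of the members, or 3.47, 4.12 and 3.91 per 100 kb, against 2.89, 3.49 and 3.52 per 100 kb over all protein-coding genes. Each of the 9 genes had at least 1 strong peak in NG and in HG+miR-93, and 8 had one in HG+NT, where *Arhgdia* had none, against 58.1% (NG), 61.5% (HG+NT) and 59.6% (HG+miR-93) of all protein-coding genes. The members were longer on average, at 9.22 times 100 kb for 9 genes against 10741.9 times 100 kb for 21951. Unlike the counts per 100 kb, these shares of genes take no account of length. The summits of 5, 3 and 6 of these peaks lay outside the gene, among them 1 inside *Adssl1* beyond *Inf2* and 1 inside *Capn12* beyond *Actn4*, both in HG+miR-93. Introns held 23 of the 32 strong NG summits, 24 of the 38 HG+NT ones and 21 of the 36 HG+miR-93 ones, and 23, 25 and 25 summits lay over 2500 nt from any TSS of their gene. *Synpo* held 2 strong peaks in NG, 8 in HG+NT and, with the miR-93 mimic, 6, *Inf2* 2, 6 and 4, and *Actn4* 4, 8 and 7. *Arhgap24* held 9, 4 and 2, and *Myh9* 9, 4 and 7. As over all genes, the shallower NG list needed a −log10 p of 1.81 to enter and the other lists 1.28, so these counts are not levels. With the 20000 strongest peaks of each list, the order of the lists turned, to 24 in NG, 16 in HG+NT and, with the miR-93 mimic, 14. Ties made these sets unequal, at 28769, 21479 and 21234 peaks. Per 100 kb the members then held 2.60, 1.74 and 1.52, and all protein-coding genes, in the same order, 1.85, 1.46 and 1.40. *Synpo* then held 2, 3 and 3, *Inf2* 2, 3 and 3, and *Actn4* 4, 1 and 2.

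The overlap of the strong peaks of the members between lists depended on the rule, and its difference from all genes was not tested. By at least 1 bp, 9 of the 32 strong NG peaks (28.1%) met a strong HG+NT peak, against 32.1% in all gene bodies, and 12 (37.5%) met one of HG+miR-93, against 32.1%. Of the 38 strong HG+NT peaks, 7 (18.4%) met one of NG, against 27.0%, and 20 (52.6%) one of HG+miR-93, against 53.3%. Of the 36 strong HG+miR-93 peaks, 10 (27.8%) met one of NG and 19 (52.8%) one of HG+NT, against 26.2% and 51.4%. By a reciprocal overlap of 50%, the shares of the members were below those of all genes for each pair with NG, at 9.38% and 3.12% of the NG peaks met by HG+NT and HG+miR-93 (all genes 17.8% and 16.8%) and 7.89% and 2.78% of the peaks of those lists met by NG (15.2% and 14.0%). These are 3, 1, 3 and 1 peaks. With summits within 150 bp, the shares of the members were instead above those of all genes for each pair with NG. They were 15.6% and 12.5% of the NG peaks (all genes 10.2% and 9.37%). Of the HG+NT and HG+miR-93 peaks, 13.2% and 11.1% met one of NG (all genes 8.66% and 7.82%). These are 5, 4, 5 and 4 peaks.

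The sites inside genes are described next, chosen after their values were seen. *Myh9* has a pair of them in introns, 41336 to 43398 nt from its 5′ end and 17644 to 19706 nt from the nearest coding start. At the first site the NG summit (77798777) and the HG+NT summit (77798945) were 168 nt apart, with pileups of 9.83 (6.16 to 14.9) and 10.9 (7.86 to 14.7). At the second, 77800598 in NG and 77800839 in HG+miR-93 were 241 nt apart, with pileups of 7.15 (4.08 to 11.6) and 14.6 (11.5 to 18.3). The HG+miR-93 peak rested on 75 fragments over an input mean of 2.2 and had the second-highest fold, 4.87, of all 900109 peaks of its list and the fourth-lowest p, although its −log10 q was 0.953. In that list it stood above every member promoter except that of *Myh9*.

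The HG+NT peak was 10772 bp wide and the HG+miR-93 peak 10636 bp, and each covered both sites with a single summit. The pileup at the second site was thus at most 10.9 in HG+NT, and that at the first at most 14.6 in HG+miR-93. At the second site, HG+miR-93 stood at 2.04 times NG (1.18 to 3.75) and at no less than 1.34 times HG+NT (0.904 to 2.00), where the second interval included 1. Promoters of chromosome 15, by highest fold, had a median ratio of 1.09 in HG+miR-93 against NG, beside 0.870 for all genes. The ratios at this site were not adjusted for that. Over the whole region, the strongest HG+NT summit was 1.11 times the strongest NG summit (0.648 to 1.95). By the same measure, the strongest HG+miR-93 summit was 1.48 times the strongest NG summit (0.912 to 2.51), with an interval that included 1. The map of peaks across *Myh9* shows the same layout in the 3 lists, with 1 tall peak at the start and 1 region of tall peaks in the middle of the gene.

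**Figure D4:**
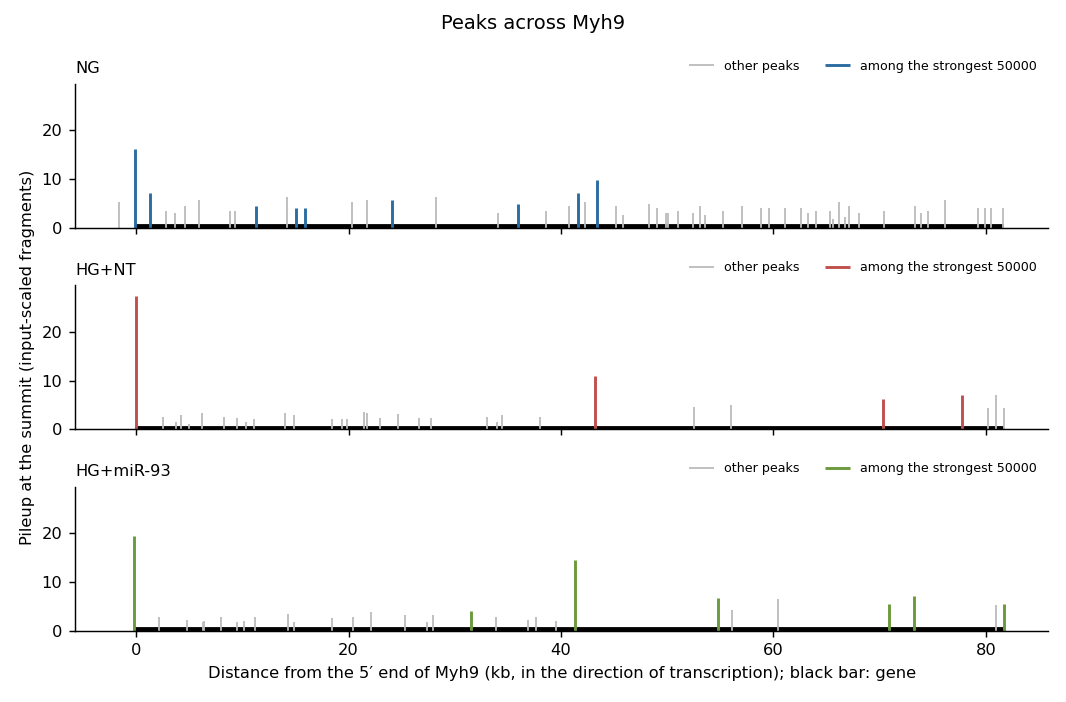
Pileup at the summit (y axis, fragments at the depth of the input) of every peak across Myh9 against its distance from the 5′ end (x axis, kb, in the direction of transcription), with 1 panel for each joint list; coloured lines are among the strongest 50000 peaks of the list, grey lines are the others, and the black bar is the gene. In each list the tallest line stands at the start (16.1, 27.3 and 19.4), and the tallest inside the gene lies 41336 to 43398 nt from it (9.83, 10.9 and 14.6).

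The sequences of the paired *Myh9* sites are shown because they carry the highest pileup found over 2500 nt from a coding start in any member. Each is 300 bases around the summits named above, read from the RefSeq genome of GRCm38.p6 in the direction of the gene. Capitals mark CArG boxes, AP-1 motifs (TGANTCA) and ETS motifs (GGAAGT) on either strand.
Myh9 intron, first site, chr15:77798711-77799010, minus strand: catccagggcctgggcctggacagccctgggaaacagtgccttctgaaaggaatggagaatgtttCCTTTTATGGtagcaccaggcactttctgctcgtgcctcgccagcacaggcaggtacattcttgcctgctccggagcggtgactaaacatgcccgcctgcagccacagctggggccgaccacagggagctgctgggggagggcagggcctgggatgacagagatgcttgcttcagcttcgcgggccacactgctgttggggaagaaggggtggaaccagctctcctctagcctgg
Myh9 intron, second site, chr15:77800568-77800867, minus strand: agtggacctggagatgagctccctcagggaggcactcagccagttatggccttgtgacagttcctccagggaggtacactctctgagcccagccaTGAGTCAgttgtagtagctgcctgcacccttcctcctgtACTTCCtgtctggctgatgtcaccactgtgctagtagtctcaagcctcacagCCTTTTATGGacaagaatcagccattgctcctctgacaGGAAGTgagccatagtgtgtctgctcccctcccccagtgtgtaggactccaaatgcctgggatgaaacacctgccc
In the first sequence the NG summit is base 234 and the HG+NT summit base 66, and in the second the NG summit is base 270 and the HG+miR-93 summit base 29. Both sequences hold the same CArG box, CCTTTTATGG, at bases 66 to 75 of the first and 187 to 196 of the second. A CArG box was found in 1.05% (NG, 1525 windows), 1.31% (HG+NT, 4570) and 1.13% (HG+miR-93, 4766) of windows of 300 bases around strong summits on chromosome 15 that lay over 2500 nt from a coding TSS. The second sequence also holds an AP-1 motif at bases 96 to 102, which overlaps an E-box (CANNTG), and ETS motifs at 135 to 140 and 225 to 230. The AP-1 motif was found in 9.30% to 11.7% and the ETS motif in 17.9% to 19.6% of the same windows. The windows were centred between summits of different lists, and the motif matches do not show that a factor was bound.

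Other members had weaker sites in their introns. In *Arhgap24*, an intron summit lay at 102569009 in NG and 102569008 in HG+NT, with pileups of 4.47 (2.14 to 8.21) and 4.41 (2.57 to 7.07), and HG+miR-93 had a summit 56 nt from the first. In *Actn4*, a strong NG peak 36856 nt from the 5′ end, in an intron, had a pileup of 8.93 (5.46 to 13.8). At that position the pileup was at most 4.93 (2.97 to 7.71) in HG+NT and, with the miR-93 mimic, 4.86 (3.14 to 7.17), below the lower bound of NG although the intervals overlapped. A sense-intronic gene, *Gm44699*, lies over this site. *Myo1e* held 3, 6 and 6 strong peaks, of which none exceeded 5.25.

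In *Synpo*, the tallest peaks of HG+NT and HG+miR-93 lay not at a coding start but 53921 and 53918 nt from the 5′ end, in an exon of a non-coding transcript of the gene. Their summits, 60606221 and 60606224, were 3 nt apart, with pileups of 8.57 (5.90 to 12.03) and 8.16 (5.88 to 11.0). NG had a summit 41 nt from the HG+NT one, with a pileup of 6.70 (3.75 to 11.05), but this peak was not among its strongest, being number 273917 in the order of −log10 p. The 3 intervals overlapped. The map of peaks across *Synpo* shows it as the tallest line in HG+NT and HG+miR-93.

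**Figure D5:**
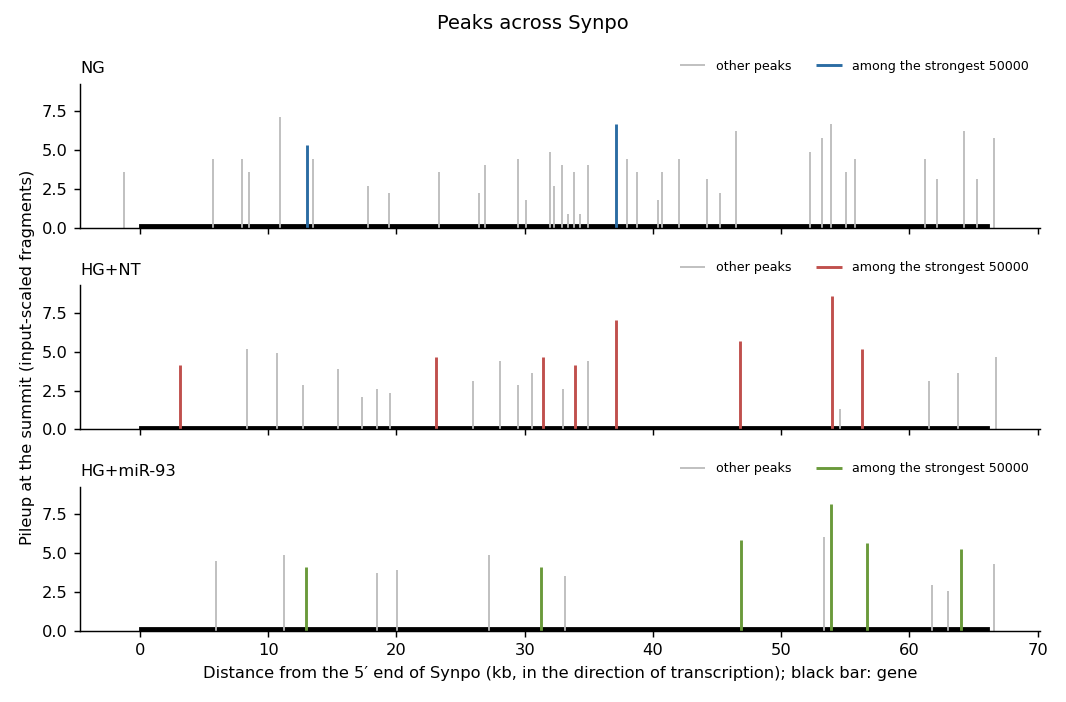
Pileup at the summit (y axis, fragments at the depth of the input) of every peak across Synpo against its distance from the 5′ end (x axis, kb, in the direction of transcription), with 1 panel for each joint list; coloured lines are among the strongest 50000 peaks of the list, grey lines are the others, and the black bar is the gene. The tallest lines of HG+NT and HG+miR-93, 8.57 and 8.16, stand 53921 and 53918 nt from the 5′ end, where the NG line reaches 6.70.

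For context, 40 other genes of the actin cytoskeleton (actins, tropomyosins, the Arp2/3 and WAVE complexes, small GTPases, their kinases and adhesion linkers) were measured in the same way. Their promoters ranked at median percentiles of 79.8, 81.9 and 84.4 by pileup and 77.2, 61.4 and 64.8 by fold in the 3 lists, NG first. In HG+NT against NG, 2 were past 1.5-fold higher and 2 past 1.5-fold lower, with a median ratio of 0.856 beside 0.904 for all genes. These counts are 5% each, against 7.73% higher and 19.5% lower of all genes. The highest were *Vcl*, the adhesion linker vinculin, at 3.55 (1.74 to 8.18) and the tropomyosin gene *Tpm1* at 1.61 (0.834 to 3.31), and the lowest the talin gene *Tln1* at 0.282 (0.145 to 0.527) and *Actb*, beta-actin, at 0.627 (0.394 to 1.00). In HG+miR-93 against HG+NT, 1 was higher (2.5%, all genes 4.35%) and 3 lower (7.5%, all genes 9.04%), with a median of 0.904 beside 0.952. The highest were *Tln1* at 1.54 (0.826 to 3.003) and *Arhgdib* at 1.44 (0.731 to 2.98), and the lowest *Tpm3* at 0.348 (0.194 to 0.605) and *Cd2ap* at 0.617 (0.377 to 1.00). In HG+miR-93 against NG, 1 was higher (2.5%, all genes 6.35%) and 10 lower (25%, all genes 24.5%), with a median of 0.829 beside 0.870. Of these 10, 2 genes on chromosome 17 had identical pileups in each list. The highest were *Vcl* at 3.82 (1.91 to 8.66) and *Tpm1* and *Synpo2*, both at 1.31, and the lowest *Tpm3* at 0.378 (0.197 to 0.720) and *Tln1* at 0.435 (0.260 to 0.727). The summits of *Vcl* in NG (300 nt downstream), *Tln1* in HG+NT (1582 nt downstream) and *Tpm3* in HG+miR-93 (offset -2781 nt) lay apart from those of the other lists, so their ratios compare different sites.

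The label of the cells was checked on promoter percentiles by fold. The 5 podocyte markers reported (*Nphs1*, *Podxl*, *Cd2ap*, *Lmx1b*, *Ptpro*) had medians of 44.8, 73.4 and 64.1 in the 3 lists, NG first, and the 3 endothelial markers (*Pecam1*, *Cdh5*, *Tie1*) 55.3, 68.3 and 72.2. The 2 leukocyte markers (*Ptprc*, *Cd68*) stood at 27.1, 36.3 and 38.4, the 2 mesangial markers (*Pdgfrb*, *Itga8*) at 36.7, 82.6 and 82.0 and the 2 tubular markers (*Aqp1*, *Lrp2*) at 43.3, 59.0 and 49.8. Podocyte markers did not stand above those of the other cell types in every list, so promoter accessibility in these lists did not single out the labelled cell type. The part of other cell types in the members' values was not tested.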

How the data were processed

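DNase-Seq libraries of cultured mouse podocytes were prepared as biological replicates by the authors, who converted reads with CASAVA 1.8.2, trimmed them, aligned them with Bowtie to mm10, removed duplicates and ran MACS2 with the input as control. For each condition 1 joint list was deposited. The authors' fold is a ratio of pileup and input, each plus 1, and their −log10 p and −log10 q come from a Poisson model. The deposited display score was not used.

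For each peak, the whole number of fragments and the local mean of the input that give its fold and p were sought, the local mean being the background or a multiple of 0.02. All peaks (100%) could be solved, 98.0% (NG), 98.4% (HG+NT) and 95.0% (HG+miR-93) in a single way, and the fewest fragments were taken for the rest. The solving was checked only on folds and p recomputed from its own solutions. That check does not test the scaling to the input's depth or the background. The ratio intervals were checked on simulated Poisson counts. Pileup ratios have 95% intervals conditional on the summed fragments. Promoters were 500 nt on either side of 54374 TSSs of GENCODE vM21 (GRCm38, the same build). Values were called past 1.5-fold. No count of reads was used.

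The members and lists were chosen with earlier results of these data known. Of the podocyte markers, 2 are not reported here. Named genes were the 9 members and, of the other actin genes, those with the 2 highest and 2 lowest ratios per comparison. Alternatives were the peak of highest pileup, summits within 500 nt, 1000 nt promoters, the most fragments, scaling by list or chromosome medians, folds, ranks by pileup or −log10 p, a minimum −log10 p of 1, the 20000 strongest peaks and stricter overlaps. The scripts ran in Python 3.11.15 with scipy 1.17.1, numpy 2.4.6, pandas 2.3.3 and, for the plots, matplotlib 3.10.9.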

Additional observations from a re-analysis of the deposited data

How the results depend on the processing

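No paired analysis was possible because the lists join the replicates of each condition, and for the same reason leaving out a replicate was not run. The counts of members past 1.5-fold were small and moved with the choice of peak. In HG+NT against NG, the 2 members past 1.5-fold lower became 0 by highest pileup, with summits within 500 nt (6 members left), with scaling by chromosome medians and with a minimum −log10 p of 1 (5 members left). Dividing the ratio by the median ratio of the chromosome is another measure. By it, at the peak of highest fold, *Arhgdia* stood at 0.646 and *Arhgap24* at 0.667. *Myh9* was past 1.5-fold higher under each of these settings taken alone, but at its first start and over the median ratio of its chromosome it stood at 1.48. In HG+miR-93 against HG+NT, the 1 member past 1.5-fold lower became 0 by highest pileup and 2 with summits within 500 nt, with scaling by chromosome medians and by fold, and by fold 1 member, *Des*, was past 1.5-fold higher. Over the median ratio of the chromosome, *Myh9* stood at 0.274 and *Myo1e*, the next lowest, at 0.704. In HG+miR-93 against NG, the 2 members past 1.5-fold lower became 1 by highest pileup and with summits within 500 nt, and 0 by fold and with a minimum −log10 p of 1. In HG+NT against NG by fold, the 2 members past 1.5-fold lower were *Arhgdia* and *Des* (0.530, from 1.11). Called values that turned were *Arhgap24* in HG+NT against NG, from 0.581 to 1.40 with summits within 500 nt and to 1.14 by fold, and *Myo1e* in HG+miR-93 against NG, from 0.470 to 1.41 by fold. Values that were not called also crossed 1 by fold, among them *Des* (0.891 to 1.51 in HG+miR-93 against HG+NT) and *Anln* (0.756 to 1.22 in HG+NT against NG). The cause was not tested. The median percentile of the members was 60.8 in NG by highest pileup and 44.0 with summits within 500 nt, and ranked by pileup it was 68.2 in NG and 74.0 in HG+NT. With the 20000 strongest peaks, the strong peaks in member bodies numbered 24 in NG, 16 in HG+NT and 14 with the miR-93 mimic, so that NG turned from the lowest to the highest. With ties, the NG set was also the largest, at 28769 peaks against 21479 and 21234. Over all protein-coding genes NG was likewise the highest, at 1.85, 1.46 and 1.40 per 100 kb. By a reciprocal overlap of 50%, the strong NG peaks shared with HG+NT fell to 3 and with HG+miR-93 to 1, those of HG+NT shared with NG to 3 and with HG+miR-93 to 11, and those of HG+miR-93 shared with NG to 1. With summits within 150 bp, they were 5 and 4 for NG, 6 for HG+NT with HG+miR-93, and 4 with NG and 6 with HG+NT for HG+miR-93. Of the other alternative values, 49 counts and medians and 209 single ratios stayed within 1.5 times, 5 percentile points or the counting interval, and 7 single ratios moved further: 6 of *Myh9* (1.69 to 1.70 in HG+NT against NG, 0.507 to 0.713 in HG+miR-93 against HG+NT) and 1 of *Myo1e* (1.32 by fold in HG+NT against NG, from 0.698). At 11 to 105 fragments a summit, the counting interval included 1 for 8 of the 9 members in HG+NT against NG.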
